A study of Mus musculus with 36 samples.

Results

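The SLC25 family is a set of carriers, most of them in the inner membrane of mitochondria, that pass nucleotides, phosphate, amino acids, carboxylic acids, cofactors and iron between the cytosol and the mitochondrial matrix. Each carrier is built from repeats of the same short domain and most exchange one compound for another. In the brain they supply ATP to the cytosol, run the malate-aspartate shuttle and bring glutamate into mitochondria, while some members, Slc25a35 among them, have no well-established substrate. The members were the genes whose symbol is Slc25a followed by a number, with 1 pseudogene left out, which gave 47 protein-coding genes of the 52636 genes in the table. Relatives with other names, such as the uncoupling proteins and the Mtch proteins, were not counted as members.

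RNA was sequenced from punches of the anterior cingulate cortex (aCC) of 36 female mice, 8 to 11 weeks old, on the C57BL/6NTac background. Wild-type (WT) mice and littermates with 1 targeted allele of Brd1 (Brd1+/-) were injected under the skin on consecutive days, either with saline (vehicle) or with the tricyclic antidepressant imipramine (IMN) at 10 mg/kg. There were 8 WT and 9 Brd1+/- mice on vehicle, and 10 WT and 9 Brd1+/- mice on IMN. All 4 groups went through tail suspension, open field and forced swim tests, the last about an hour before the brain was taken, so no group is free of handling and swim stress. The Brd1 allele was made in a single line and is carried throughout the body, and Brd1+/- cells keep 1 intact copy. The comparisons ask what the Brd1 allele goes with, what IMN goes with in each genotype, and whether Slc25a35, a gene the study marked in this tissue, stands apart from the rest of its family.

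Values are TPM, the abundance of a gene's transcripts per length and relative to the library's total, so levels of different genes can be set beside each other. Brd1 itself lay between 22.6 and 31.9 TPM in WT vehicle and between 13.8 and 20.9 TPM in Brd1+/- vehicle, and between 17.9 and 27.8 TPM in WT IMN and 13.5 and 19.4 TPM in Brd1+/- IMN. In limma its difference was -0.64 with vehicle (unadjusted p = 2.42e-06, adjusted p = 0.062) and -0.45 with IMN (unadjusted p = 6.87e-05, adjusted p = 0.882), so even the targeted gene missed an adjusted p of 0.05, and an adjusted p above it says little about a member. Markers of neurons, oligodendrocytes, astrocytes, microglia and endothelium were all present, as were markers of upper and deep cortical layers. The punches differed in make-up: the summed level of 8 oligodendrocyte markers ran from 172.9 to 3258 TPM, with medians of 386.7 in WT vehicle, 556.3 in Brd1+/- vehicle, 908.2 in WT IMN and 689.8 in Brd1+/- IMN, and 1 library, Brd1+/- vehicle replicate 6, stood apart with 1444 TPM of striatal markers and 3904 TPM of choroid plexus markers. The summed level of 6 immediate-early genes was lower with IMN, with medians of 1056 and 1012 TPM in WT and Brd1+/- vehicle against 687.3 and 689.3 TPM in WT and Brd1+/- IMN. In such tissue, fewer cells of a type and less RNA per cell cannot be told apart. Of the 630 pairs of libraries, 0 held identical values. Nothing in the labels names a sequencing batch, and TPM keep no record of depth, so the error of a value is the spread between mice.

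The family as a whole took a steady share of the transcripts. The summed level of the 47 members on vehicle was 2331 TPM ± 131 (SD, n = 8) for WT and 2328 TPM ± 120 (SD, n = 9) for Brd1+/- mice. On IMN it was 2319 TPM ± 136 (SD, n = 10) for WT and 2307 TPM ± 107 (SD, n = 9) for Brd1+/- mice, and single libraries lay between 2040 and 2549 TPM. The 4 ranges overlapped almost completely. The share of TPM from genes encoded in the mitochondrial genome ran from 21.7% to 30.5% over the libraries.

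The levels of single members spanned more than 3 orders of magnitude, and a few carriers of energy metabolism made up most of the sum. The highest was Slc25a4, the adenine nucleotide translocase that exchanges ATP for ADP, with a mean of 474 TPM over the 36 libraries. It was followed by the ATP-magnesium/phosphate carrier Slc25a23 (374 TPM) and the phosphate carrier Slc25a3 (311.5 TPM), whose ranges over libraries met those of their neighbours in the order. The other broadly used adenine nucleotide translocase, Slc25a5, had a mean of 141 TPM. In the malate-aspartate and glutamate group, the glutamate carrier Slc25a22 (175.5 TPM), the oxoglutarate carrier Slc25a11 (79.2 TPM) and the aspartate-glutamate carrier Slc25a12 (49.0 TPM) were high, whereas Slc25a13, the form of that carrier best known from liver, had a mean of 0.630 TPM. The glutamate carrier Slc25a18, known from astrocytes, had a mean of 48.3 TPM.

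Other roles were represented at lower levels. The uncoupling-protein-like group ran from Slc25a14 at 46.3 TPM to Slc25a30 at 3.73 TPM, and the citrate carrier Slc25a1 (34.1 TPM) stood above the dicarboxylate carrier Slc25a10 (10.5 TPM) and the oxodicarboxylate carrier Slc25a21 (0.0814 TPM). Among carriers of amino acids, ornithine and carnitine, the branched-chain amino acid carrier Slc25a44 was highest at 62.2 TPM and the ornithine carrier Slc25a2 was at 0.123 TPM. Of the nucleotide and cofactor carriers, Slc25a39, needed for mitochondrial glutathione, was highest at 53.4 TPM. Both mitoferrins, the iron importers, were present, Slc25a28 at 33.5 TPM and Slc25a37 at 17.4 TPM. Slc25a46, an outer-membrane member linked to mitochondrial fission, led the members with no assigned cargo at 46.3 TPM. Slc25a35 was 32nd of 47 with a mean of 4.90 TPM, next to its relative Slc25a34 at 3.93 TPM.

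Of the 47 members, 43 passed the filter of at least 0.1 TPM in at least 8 libraries. The 4 that did not were Slc25a41, listed at 0 in all 36 libraries, Slc25a48 with at most 0.182 TPM, Slc25a54 with at most 0.229 TPM and Slc25a31, the testis form of the translocase, with at most 0.286 TPM.

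**Figure D1:**
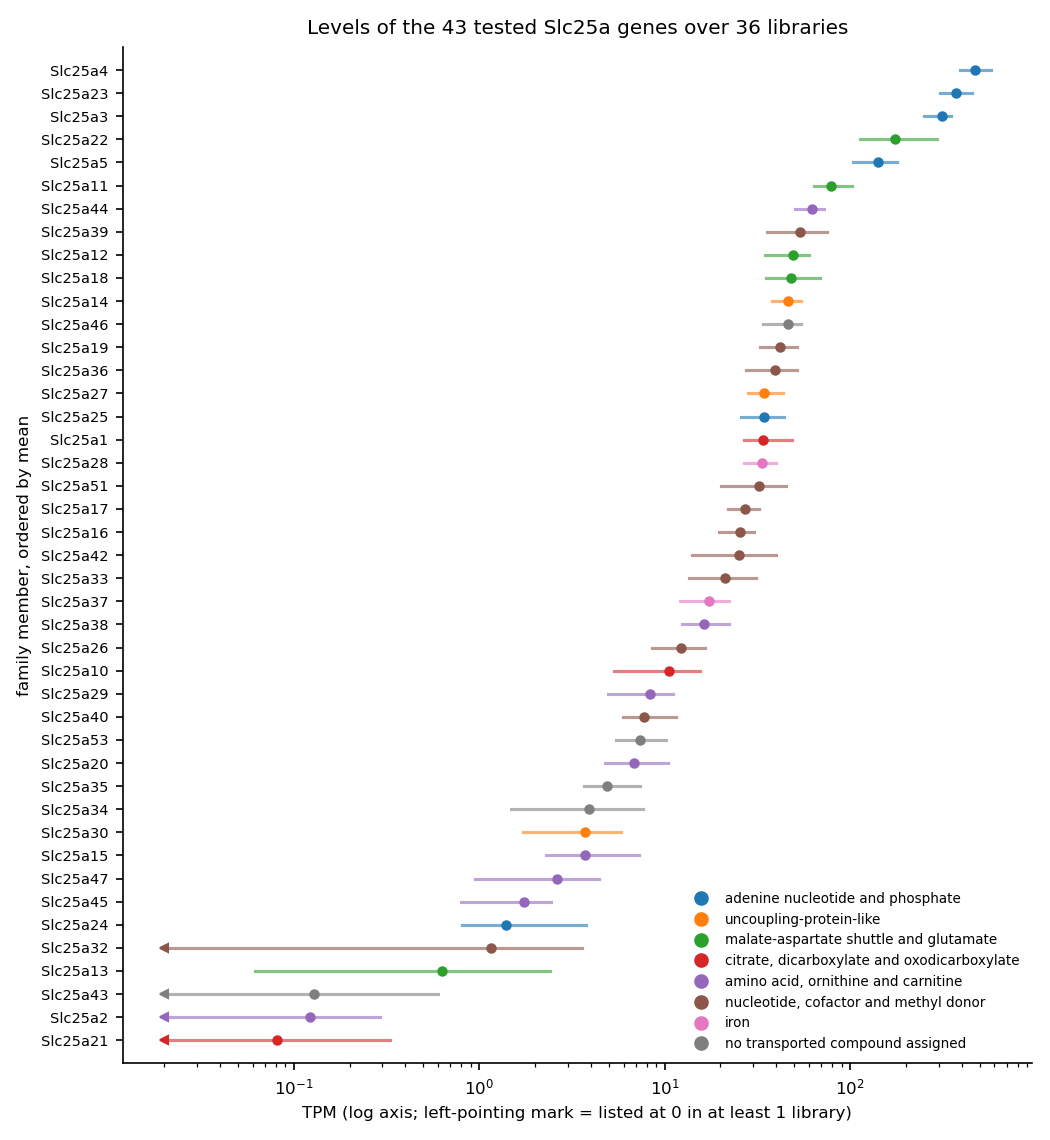
Mean level (point) and range over 36 libraries (line) of the 43 tested members, in TPM on a log axis, coloured by transported compound. Slc25a4 leads at a mean of 474 TPM and Slc25a35 sits low in the order at 4.90 TPM.

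Members also differed in how much they varied between mice of a group. Among the members above 10 TPM, the pooled within-group SD of log2(TPM + 0.5) was 0.10 for Slc25a3, against 0.15 for Slc25a4 and 0.29 for the pyrimidine nucleotide carrier Slc25a33. The largest in that set was 0.43, for Slc25a10. It was 0.19 for Slc25a35, 0.43 for Slc25a34 and 0.59 for Slc25a13.

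Slc25a35 was similar in 3 of the groups and higher in Brd1+/- mice given IMN. The gene (ENSMUSG00000018740) lies on the plus strand of chromosome 11, from 68968131 to 68974365 (GRCm38), and has no assigned cargo. Its lowest, median and highest levels were 3.85, 4.51 and 5.33 TPM in WT vehicle, 3.74, 4.63 and 5.05 TPM in Brd1+/- vehicle, 3.68, 4.51 and 6.14 TPM in WT IMN and 4.49, 5.67 and 7.38 TPM in Brd1+/- IMN. All 9 Brd1+/- IMN libraries lay above the mean of Brd1+/- vehicle and 7 of the 9 lay above its highest library, while the other 3 groups covered much the same range.

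On the log2(TPM + 0.5) scale, the difference between Brd1+/- IMN and Brd1+/- vehicle for Slc25a35 was 0.37 (SE 0.10, 95% interval 0.15 to 0.58), a 1.29-fold higher level, with an unadjusted p of 0.00218 and a Benjamini-Hochberg adjusted p of 0.605 in limma over 25572 genes. It had the smallest p of the 43 members and ranked 91st of all genes tested. Without Brd1+/- vehicle replicate 6, the library with striatal and choroid plexus markers, the difference was 0.34 (limma unadjusted p = 0.00487, adjusted p = 0.645), and the genotype-by-IMN interaction, described next, was 0.28 (limma unadjusted p = 0.0446, adjusted p = 1.00). The two-sided exact permutation test of this single gene gave p = 0.00156, or 0.00625 after adjustment over the 4 comparisons of groups. Against WT IMN, Brd1+/- IMN was higher by 0.29 (SE 0.11, limma unadjusted p = 0.0126). Of its 9 libraries, 8 lay above the WT IMN mean but only 4 above the highest WT IMN library. The limma adjusted p of this difference was 0.9994 or more in all other settings and all fits without a library. In that comparison the exact permutation p was 0.0116, or 0.0232 adjusted over the 4 comparisons. Since the study marked this gene from these same libraries, these results are not independent evidence of a difference.

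Neither the Brd1 allele alone nor IMN in WT mice went with a difference of that size in Slc25a35. In vehicle mice the genotypes differed by -0.02 (SE 0.091, 95% interval -0.21 to 0.17), and in WT mice IMN and vehicle differed by 0.06 (SE 0.096, 95% interval -0.14 to 0.26). Both intervals end below the 0.37 found between IMN and vehicle in Brd1+/- mice. The 95% interval of that 0.37, given above, overlaps both, so the intervals do not show that the effects differ. The difference between the 2 IMN effects, tested as a genotype-by-IMN interaction over all 36 libraries, was 0.31 (SE 0.13), with an unadjusted p of 0.0273 and an adjusted p of 1.00 in limma. The unadjusted p rose above 0.05 in 3 of 9 other settings, up to 0.0726, and in 1 of 36 fits without a library. The correlations of Slc25a35 with 11 marker scores within groups lay between -0.18 and 0.23. With oligodendrocyte, astrocyte and striatal scores as covariates the IMN difference in Brd1+/- mice was 0.34 (limma unadjusted p = 0.00342, adjusted p = 0.399) and the interaction 0.27 (limma unadjusted p = 0.063, adjusted p = 0.921).

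A part of Slc25a35 is shared with another gene. It overlaps Rangrf, on the opposite strand, and 1151 of its exonic bases, 31.3%, are also exonic in Rangrf. Since the sources do not state whether counting used strand, reads from this stretch cannot be assigned to one gene with certainty. The same holds for shared stretches of other members, such as 14.9% of the exonic bases of Slc25a33 (with Gm13068) and 6.33% of Slc25a37 (with Gm31748). The span of Slc25a53 overlaps Zcchc18 (mean 194 TPM) on the opposite strand, with 0 shared exonic bases. Rangrf had medians of 4.85 TPM (WT) and 4.54 TPM (Brd1+/-) with vehicle and of 4.93 TPM (WT) and 4.80 TPM (Brd1+/-) with IMN, and its IMN difference in Brd1+/- mice was 0.17 (SE 0.18, limma unadjusted p = 0.349, adjusted p = 0.98). Over the 36 libraries Slc25a35 and Rangrf were only weakly related, with Pearson's r of 0.07 (permutation p = 0.679, adjusted 0.679 over 2 relations) and Spearman's rho of 0.11 (permutation p = 0.54, adjusted 0.54), and r was 0.15 without the 2 libraries farthest from the median.

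**Figure D2:**
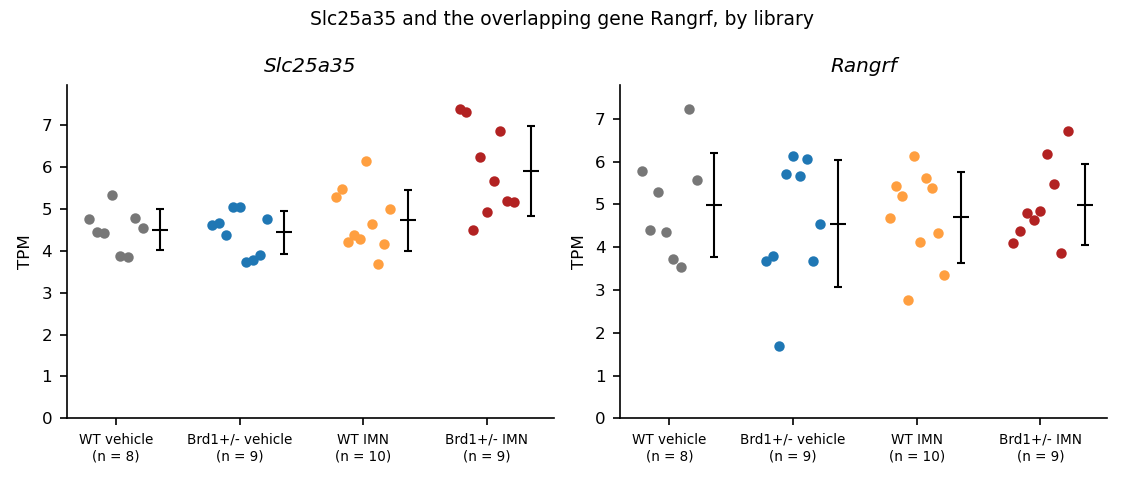
Level of Slc25a35 (left) and of Rangrf (right), which overlaps it on the opposite strand, in TPM per library (points) by group, with mean and SD beside each group. Slc25a35 reaches 7.38 TPM in Brd1+/- IMN, where 7 of 9 libraries lie above the highest Brd1+/- vehicle library, and the Rangrf groups overlap.

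The genes whose levels followed Slc25a35 most closely over the 36 libraries were Timp4, an inhibitor of metalloproteinases (r = 0.60, rho = 0.59), Gm26230 (r = 0.58, rho = 0.63), Gm26498 (r = 0.57, rho = 0.64), Gm26782 (r = 0.56, rho = 0.51) and the zinc finger gene Zfp810 (r = 0.53, rho = 0.50). They were the highest of 17715 genes that averaged 1 TPM or more, and without the 2 farthest libraries their r lay between 0.43 and 0.61. Picked as the highest of so many, these values are a description only. No family member was among them.

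When genotypes were compared in vehicle mice, 0 of the 43 members had an adjusted p under 0.05 in limma and 0 had an unadjusted p under 0.05, where 3.75% of all 25572 genes did, 1.22% higher and 2.53% lower. The members split into 18 higher and 25 lower in Brd1+/-, with a median difference of -0.03 beside -0.02 over all genes. The smallest p belonged to Slc25a3, which ran from 284.1 to 342 TPM (median 292.9) in WT vehicle and from 289.8 to 348.8 TPM (median 324.3) in Brd1+/- vehicle, a difference of 0.11 (SE 0.053, limma unadjusted p = 0.0513, adjusted p = 1.00). The ranges overlapped over most of their length. This count rested on 1 library more than on any other: without WT vehicle replicate 1, 5 members had an unadjusted p under 0.05, namely Slc25a3, Slc25a5, Slc25a22, Slc25a34 and Slc25a37. The share over all genes without that library is not given here. Slc25a34 then differed by -0.51 (limma unadjusted p = 0.00264, adjusted p = 0.639) in place of -0.36. That library had the lowest upper-layer marker sum of its group, 54.9 TPM, and 2644 TPM of oligodendrocyte markers, the most in its group, and their part in the count was not tested.

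Between the genotypes under IMN, 3 of the 43 members had an unadjusted p under 0.05, all higher in Brd1+/-, where 3.23% of all genes were called and 1.97% were called higher and 1.26% lower, and 0 had an adjusted p under 0.05 in limma. They were Slc25a32, Slc25a35 and Slc25a43. Slc25a43, a member with no assigned cargo, had at most 0.599 TPM in any library and was above 0 in 8 of 9 Brd1+/- IMN and 4 of 10 WT IMN libraries. Its difference of 0.37 (limma unadjusted p = 0.0256, adjusted p = 1.00) therefore lies close to the pseudocount of 0.5 TPM and ran from 0.22 to 0.97 under the other settings. The median difference of the 43 members was 0.00, beside 0.01 over all genes.

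Slc25a32, a carrier of folate into mitochondria on chromosome 15 (39091231 to 39112716, minus strand), had values of 2 kinds. It was listed at 0 in 22 libraries and lay between 2.48 and 3.60 TPM in the other 14, with nothing between. It was above 0 in 4 of 8 WT vehicle, 3 of 9 Brd1+/- vehicle, 1 of 10 WT IMN and 6 of 9 Brd1+/- IMN libraries. Dcaf13, the gene beside it, had a median of 11.0 TPM where Slc25a32 was at 0 and 10.5 TPM where it was not.

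The limma difference of Slc25a32 between the genotypes under IMN was 1.64 (SE 0.49, unadjusted p = 0.00339, adjusted p = 1.00), the smallest p of the 43 members in that comparison. It is described here because of that p, so no further test of it on these libraries was read as evidence. In WT mice IMN differed from vehicle by -1.09 (limma unadjusted p = 0.044, adjusted p = 0.748), and the unadjusted p rose above 0.05 in 13 of 18 fits without a library, reaching 0.104 without WT vehicle replicate 1, and in 4 of 10 other settings. The interaction was 2.08 (SE 0.82, limma unadjusted p = 0.0163, adjusted p = 1.00). These sizes depend on the pseudocount, since they weigh how many libraries are at 0, and the genotype difference under IMN ran from 1.17 to 2.86 under the other settings. In the table, 63 genes were at 0 in at least 5 libraries and at 2 TPM or more in at least 5 others with no value between, and Slc25a32 was the only member among them. Whether these 0 values are missing transcripts or a failed estimate was not tested.

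For IMN in Brd1+/- mice, the median difference over the family was small. Of the 43 members, 30 were higher with IMN, 69.8% beside 52.5% of all genes, and the median difference was 0.06 beside 0.01 over all genes. Members vary together from mouse to mouse, as described below, so this is not a count of 43 separate observations. The summed oligodendrocyte markers had medians of 556.3 TPM in Brd1+/- vehicle and 689.8 TPM in Brd1+/- IMN, and their part in the count was not tested. Only 2 members had an unadjusted p under 0.05, Slc25a35 and Slc25a53, where 5.52% of all genes did, and both were higher, where 3.12% of all genes were called higher and 2.4% lower. By limma, 0 members had an adjusted p under 0.05, where 0.00782% of all genes (2 genes) did. The other 41 members lay between -0.10 and 0.99, the upper end being Slc25a32.

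In WT mice, 5 of the 43 members had an unadjusted p under 0.05 between IMN and vehicle, 1 higher and 4 lower, where 6.6% of all genes were called, 2.03% higher and 4.57% lower. Again 0 had an adjusted p under 0.05 in limma. The summed oligodendrocyte markers had medians of 386.7 TPM in WT vehicle and 908.2 TPM in WT IMN, and their part in this count was not tested. The higher one was Slc25a53, and the lower ones were both mitoferrins, Slc25a23 and Slc25a32. Here 25 of 43 members were higher with IMN, and the median was 0.04 beside -0.01 over all genes.

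Slc25a53, an X-linked member with no assigned cargo, had higher medians with IMN in both genotypes. Its lowest, median and highest levels were 5.44, 6.12 and 10.0 TPM in WT vehicle and 5.95, 8.13 and 10.2 TPM in WT IMN. In Brd1+/- mice they were 5.66, 6.56 and 8.14 TPM with vehicle and 5.97, 7.65 and 9.42 TPM with IMN. The groups overlapped in both genotypes, and in WT vehicle a single library, replicate 7, held the value of 10.0 TPM while the other 7 ended at 6.87 TPM.

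The IMN difference of Slc25a53 was 0.26 in WT mice (SE 0.12, limma unadjusted p = 0.0373, adjusted p = 0.733) and 0.22 in Brd1+/- mice (SE 0.095, limma unadjusted p = 0.0293, adjusted p = 0.856), a 1.20-fold and a 1.17-fold higher level. These comparisons share no library, but the unadjusted p is near the threshold in both. It rose above 0.05 in 10 of 18 fits without a library in WT mice, up to 0.077 (0.0588 without WT vehicle replicate 1), and in 6 of 18 in Brd1+/- mice, up to 0.0614. Without Brd1+/- vehicle replicate 6 the difference in Brd1+/- mice was 0.22 (limma unadjusted p = 0.0398, adjusted p = 0.85). It was the only member with an unadjusted p under 0.05 in the same direction in both, which 0.884% of all genes were. The interaction was -0.03 (SE 0.15, 95% interval -0.33 to 0.26). With oligodendrocyte, astrocyte and striatal scores as covariates, the difference was 0.16 in WT mice (limma unadjusted p = 0.164, adjusted p = 0.711) and 0.24 in Brd1+/- mice (limma unadjusted p = 0.0329, adjusted p = 0.586).

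Both mitoferrins, which bring iron in for heme and iron-sulfur clusters, had lower values in WT mice given IMN. Slc25a28 (mitoferrin 2, chromosome 19) ran from 32.7 to 40.0 TPM (median 35.9) in WT vehicle and from 28.6 to 37.3 TPM (median 32.5) in WT IMN. Slc25a37 (mitoferrin 1, chromosome 14) ran from 16.1 to 22.1 TPM (median 19.7) and from 12.1 to 20.4 TPM (median 17.1). For both genes the groups overlapped, with the WT vehicle libraries reaching higher and the WT IMN libraries lower.

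On the log2(TPM + 0.5) scale Slc25a28 differed by -0.16 (SE 0.063, limma unadjusted p = 0.0216, adjusted p = 0.694) and Slc25a37 by -0.21 (SE 0.098, limma unadjusted p = 0.0432, adjusted p = 0.744). In Brd1+/- mice the IMN differences were -0.01 (95% interval -0.15 to 0.12) and -0.08 (95% interval -0.28 to 0.12), where the Brd1+/- vehicle medians of 33.1 and 18.3 TPM already lay below the WT vehicle medians. The interaction, at 0.14 (limma unadjusted p = 0.107, adjusted p = 1.00) for Slc25a28 and 0.13 (limma unadjusted p = 0.337, adjusted p = 1.00) for Slc25a37, did not show that the genotypes differ. With the 3 marker scores as covariates, Slc25a28 differed by -0.20 in WT mice (limma unadjusted p = 0.00292, adjusted p = 0.283) and Slc25a37 by -0.12 (limma unadjusted p = 0.0679, adjusted p = 0.59). Slc25a23, which loads the matrix with adenine nucleotides, ran from 354.6 to 434 TPM in WT vehicle and from 305.5 to 419.3 TPM in WT IMN, a difference of -0.16 (SE 0.067, limma unadjusted p = 0.0287, adjusted p = 0.709). With the marker scores its difference was -0.14 (limma unadjusted p = 0.0569, adjusted p = 0.569), and its unadjusted p rose above 0.05 in 5 of 18 fits without a library (0.0585 without WT vehicle replicate 1). That of Slc25a37 did so in 10 of 18, up to 0.0859, and that of Slc25a28 in 0 of 18, although it was 0.075 with the replicate block.

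**Figure D3:**
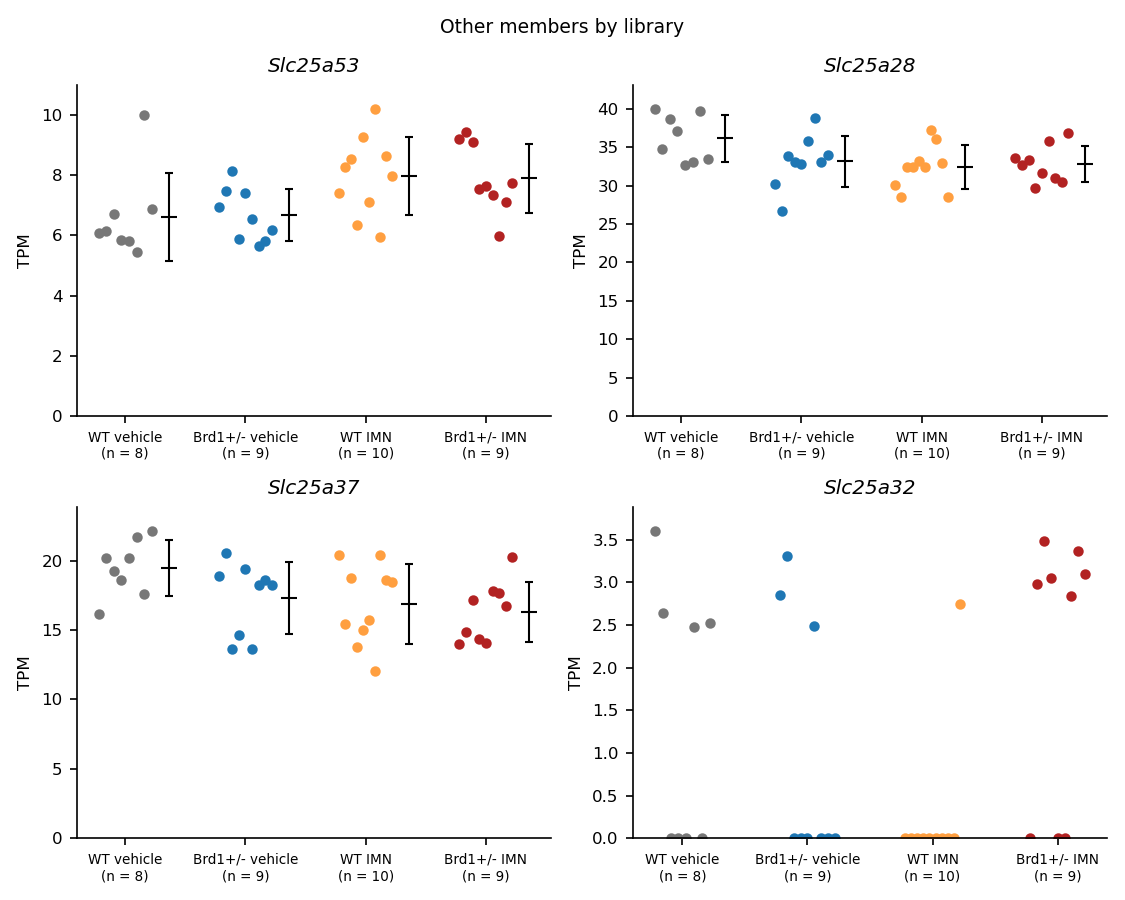
Levels of Slc25a53, both mitoferrins (Slc25a28 and Slc25a37) and Slc25a32 in TPM per library (points) by group, with mean and SD where no value is listed at 0. Slc25a53 medians are higher with IMN in both genotypes, and Slc25a32 is either at 0 or between 2.48 and 3.60 TPM.

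The 300-base windows around the annotated starts of Slc25a53 and Slc25a28 are printed because these members, unlike Slc25a35, have an entry in the RefSeq promoter table (GRCm38.p6). Each runs from 250 bases before to 50 after the start, on the minus strand, and capitals mark CCAAT. The first Slc25a53 window is chrX:137038253-137038552, the second, at an inner start, is chrX:136992983-136993282, and the Slc25a28 window is chr19:43674832-43675131.
Slc25a53 outer start: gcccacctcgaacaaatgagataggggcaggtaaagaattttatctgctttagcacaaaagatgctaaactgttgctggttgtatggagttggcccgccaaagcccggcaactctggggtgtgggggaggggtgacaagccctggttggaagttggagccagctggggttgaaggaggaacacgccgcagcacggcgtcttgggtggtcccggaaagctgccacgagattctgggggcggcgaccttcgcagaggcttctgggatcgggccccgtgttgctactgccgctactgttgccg
Slc25a53 inner start: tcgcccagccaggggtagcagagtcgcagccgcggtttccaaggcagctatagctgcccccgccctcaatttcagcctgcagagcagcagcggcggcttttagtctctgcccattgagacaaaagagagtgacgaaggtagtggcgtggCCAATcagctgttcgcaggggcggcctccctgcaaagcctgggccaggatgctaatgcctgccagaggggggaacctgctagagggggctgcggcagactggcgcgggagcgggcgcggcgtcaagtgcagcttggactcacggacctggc
Slc25a28: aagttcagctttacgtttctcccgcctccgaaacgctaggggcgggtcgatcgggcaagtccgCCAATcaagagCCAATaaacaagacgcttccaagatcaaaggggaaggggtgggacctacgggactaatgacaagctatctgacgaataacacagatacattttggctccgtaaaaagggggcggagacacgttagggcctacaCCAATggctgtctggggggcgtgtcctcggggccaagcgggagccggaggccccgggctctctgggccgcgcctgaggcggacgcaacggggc

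Windows were found for 36 of the 47 members, and 7 short motifs were searched on both strands. CCAAT was in a window of 19 of the 36 members (52.8%, beside 41.1% of all 27025 genes with a window) and the ETS-type motif CCGGAAG in 7 (19.4% beside 9.93%). The NRF1 motif GCATGCG was in 2 (5.56% beside 4.02%), the cyclic AMP element TGACGTCA in 2 (5.56% beside 2.03%), the YY1 motif AAGATGGCG in 1 (2.78% beside 1.64%) and the ERR motif AAGGTCA in 1 (2.78% beside 5.38%). The glucocorticoid half-site AGAACA was in 4 (11.1% beside 21.3%). The 2 members whose windows held TGACGTCA, Slc25a25 and Slc25a36, were not among those with an unadjusted p under 0.05. Of the 4 with AGAACA, Slc25a31 did not pass the filter and had no p, and of the others only Slc25a43 had one under 0.05. These are matches of letters and were not tested.

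For the interaction, 3 of the 43 members had an unadjusted p under 0.05, where 3.2% of all genes did, 2.18% higher and 1.02% lower, and 0 had an adjusted p under 0.05 in limma. They were Slc25a32, Slc25a35 and, in the other direction, Slc25a3 at -0.15 (SE 0.073, limma unadjusted p = 0.0498, adjusted p = 1.00). Slc25a3 had medians of 292.9 TPM in WT vehicle and 313 TPM in WT IMN, but 324.3 TPM in Brd1+/- vehicle and 310.7 TPM in Brd1+/- IMN. The direction of the IMN difference was the same in both genotypes for 32 of the 43 members, 22 higher and 10 lower, which is 74.4% beside 57.7% of all genes. Since members vary together, this too is not a count of 43 separate observations. At the stricter unadjusted level of 0.01, the count was 1 of 43 members between the genotypes under IMN (Slc25a32, background 0.614%), 1 for IMN in Brd1+/- mice (Slc25a35, background 1.22%) and 0 in the vehicle (0.7%), WT IMN (1.58%) and interaction (0.547%) comparisons.

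**Figure D4:**
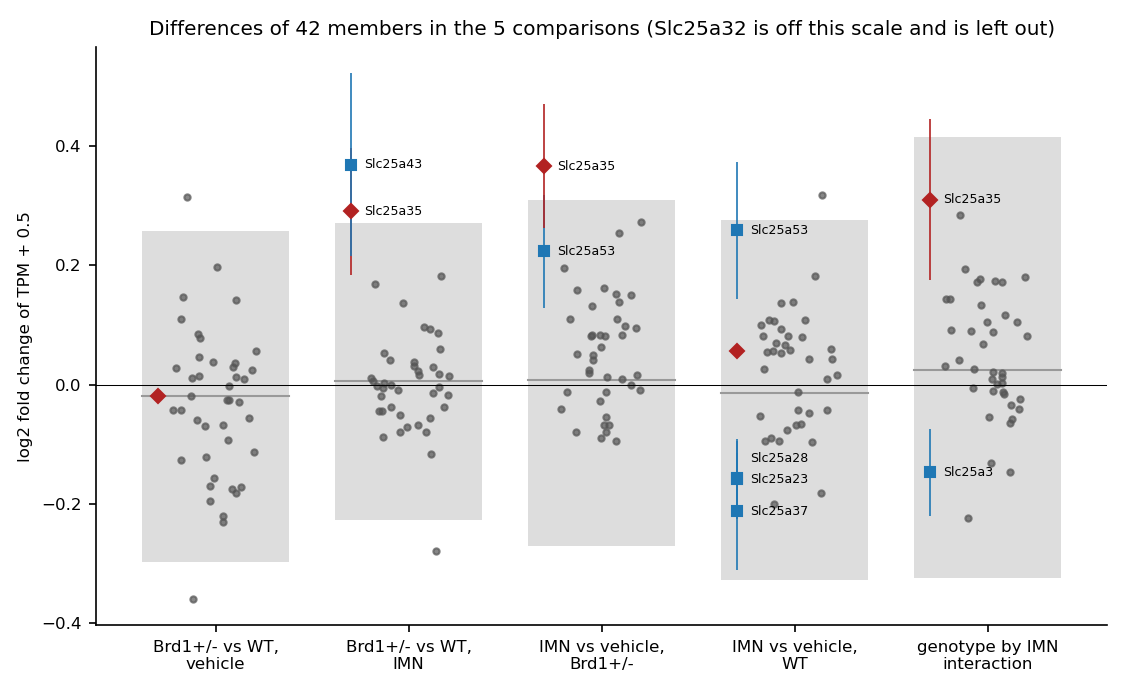
Log2 fold change of TPM + 0.5 for 42 members in the 5 comparisons; Slc25a32 is left out because its values lie off this scale. Named squares and diamonds, with SE bars, have an unadjusted p under 0.05, the diamond without a name is Slc25a35, circles are the other members, and grey bands hold the middle 90% of all 25572 genes with their median as a line. Most members lie inside the bands, and Slc25a35 lies above the band for IMN in Brd1+/- mice.

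By role, the counts rest on the unadjusted p, since 0 members had an adjusted p under 0.05 in limma. Over all genes, the shares called were 3.75% with vehicle, 3.23% between genotypes under IMN, 5.52% and 6.6% for IMN in Brd1+/- and WT mice, and 3.2% for the interaction. In the iron group, 2 of 2 members had an unadjusted p under 0.05 in WT mice given IMN, both lower, at -0.16 and -0.21, where 4.57% of all genes were called lower. Neither had an unadjusted p under 0.05 in the other 4 comparisons. With 2 members, this is not read as a result about iron carriers. Of the 6 tested carriers of adenine nucleotides and phosphate, 1 had an unadjusted p under 0.05 in WT mice given IMN (Slc25a23) and 1 in the interaction (Slc25a3). In none of the 5 comparisons did a member of the malate-aspartate and glutamate group (5 tested), the citrate and dicarboxylate group (3 tested), the uncoupling-protein-like group (3 tested) or the amino acid, ornithine and carnitine group (8 tested) have one. In the nucleotide, cofactor and methyl donor group (11 tested), Slc25a32 was the one member called. Of the 5 members with no assigned cargo, 2 had an unadjusted p under 0.05 for IMN in Brd1+/- mice (Slc25a35 and Slc25a53) and 1 in WT mice (Slc25a53). Between the genotypes under IMN 2 had one (Slc25a35 and Slc25a43), and 1 in the interaction (Slc25a35). For IMN against vehicle, the 5 had positive values in both genotypes, with medians of 0.22 and 0.10, where 52.5% and 45.5% of all genes had positive values. This role only gathers the members left over from the others, Slc25a35 among them, and Slc25a43 had at most 0.599 TPM. The shared direction was therefore not read as a response of the role. Slc25a34 ran against the oligodendrocyte score, as described below, while the oligodendrocyte medians were higher with IMN in both genotypes. With the 3 marker scores as covariates, Slc25a34 was among 5 members with an unadjusted p under 0.05 in limma for IMN in Brd1+/- mice. In that fit 2053 of 25572 genes were called. A list of 32 other genes of mitochondrial transport, such as the import channels and the pyruvate carriers, served as a comparison. Of its 31 tested genes, 0 had an adjusted p under 0.05 in limma, and those with an unadjusted p under 0.05 were Timm22, part of the carrier import complex, lower in Brd1+/- under IMN at -0.33 (limma unadjusted p = 0.04, adjusted p = 1.00), and Mtch1 at -0.17 in WT mice given IMN (limma unadjusted p = 0.0447, adjusted p = 0.75).

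Within groups, many members rose and fell together from mouse to mouse. Levels were taken as deviations from the group mean on the log2 scale for the 38 members above a mean of 1 TPM other than Slc25a32, and all 703 pairs were tested by permuting libraries within groups. After Benjamini-Hochberg adjustment, 101 pairs passed 0.05, 80 of them positive and 21 negative. No such count was made for pairs of other genes, so whether the family stands out in this was not tested. The tightest group was made of both adenine nucleotide translocases and the pyrimidine nucleotide carrier Slc25a33. Slc25a5 followed Slc25a33 with r = 0.84 and rho = 0.87, and Slc25a4 with r = 0.84 and rho = 0.79. Slc25a34 ran against Slc25a4 with r = -0.83 and rho = -0.82. Each of these had a permutation p of 1e-05 for r and for rho, the smallest that 100000 draws can give (adjusted 0.000639 for r and 0.000781 for rho), and without the 2 farthest libraries r was 0.82, 0.80 and -0.79. All libraries share one total in TPM, which links the levels of high genes.

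The same members moved with cell markers. Against the oligodendrocyte score, the mean log2 level of 8 myelin genes, 14 of 38 members passed an adjusted p of 0.05 over 418 relations with 11 scores. The share of all genes that would pass was not computed, so this is not read as a trait of the family. Slc25a5 was positive with r = 0.74 and rho = 0.76, as was Slc25a4 with r = 0.70 and rho = 0.65, while Slc25a34 was negative with r = -0.81 and rho = -0.80 (permutation p = 1e-05 for each r and adjusted p = 0.00038). For rho, the permutation p was 1e-05 for Slc25a5 and Slc25a34 (adjusted 0.00038) and 4e-05 for Slc25a4 (adjusted 0.000984). Without the 2 libraries farthest from the median score r was 0.68, 0.61 and -0.74.

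Members also moved with layer and microglia markers. Slc25a37, mitoferrin 1, ran against the deep-layer score with r = -0.80 and rho = -0.78 (permutation p = 1e-05 for both, adjusted 0.00038), and r was -0.76 without the 2 farthest libraries. Slc25a34 was the member most closely tied to microglia markers, with r = 0.77 and rho = 0.73 (permutation p = 1e-05 for both, adjusted 0.00038; r = 0.77 without the 2 farthest libraries). The scores come from the same punches and are not independent of each other. Whether these relations are separate from those with the oligodendrocyte score was not tested. Slc25a35 passed in 0 of its pairs with other members, the highest being Slc25a10 (r = 0.36, permutation p = 0.0452, adjusted 0.194; rho = 0.32, permutation p = 0.0757, adjusted 0.28; r = 0.38 without the 2 farthest libraries), and in 0 of its relations with the scores. With Slc25a34 its r was 0.05 (permutation p = 0.803, adjusted 0.893) and rho 0.09 (permutation p = 0.63, adjusted 0.837), and r was 0.14 without the 2 farthest libraries.

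**Figure D5:**
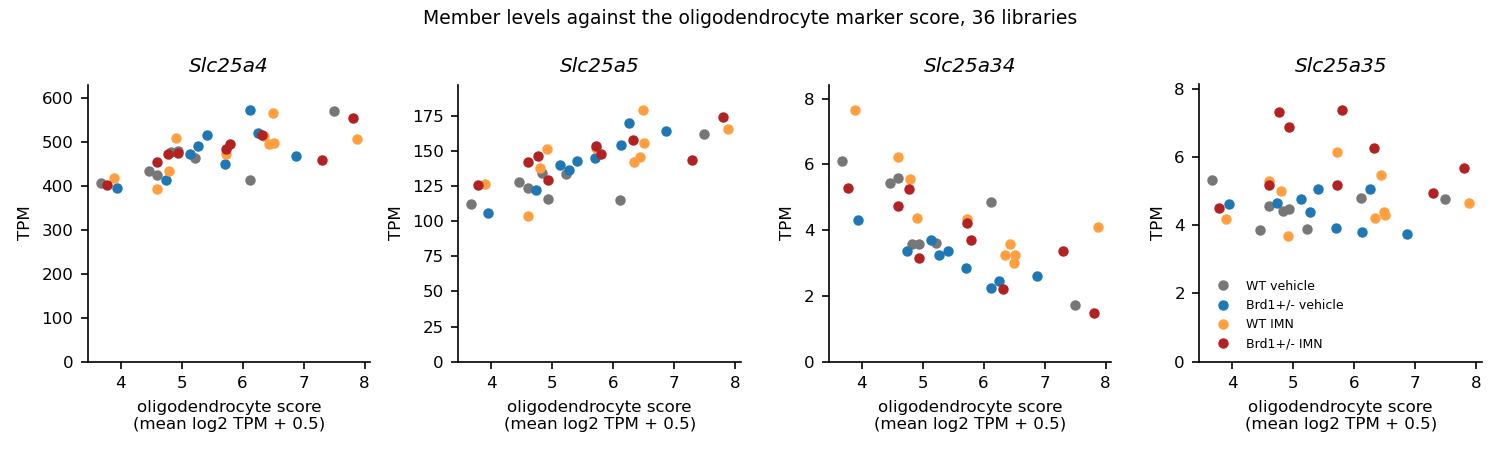
Levels of Slc25a4, Slc25a5, Slc25a34 and Slc25a35 in TPM against the oligodendrocyte score (mean log2 of TPM + 0.5 of 8 markers), 1 point per library, coloured by group. Within groups Slc25a4 and Slc25a5 are higher and Slc25a34 lower where the score is higher (r = 0.70, 0.74 and -0.81), and Slc25a35 shows r = -0.04.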

How the data were processed

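Per the study's methods, the authors aligned quality-filtered single-end BGISEQ-500 reads to GRCm38 with HISAT2 2.1.0 and quantified genes with StringTie 1.3.4. The submitters' processing notes also name FastQC and Trimmomatic, without their roles. The deposited values are TPM made by the authors. Their count test was in edgeR, on data not used here, and strand use is not given in the sources used here. All 36 columns were matched to samples by their labels. Coordinates and overlaps came from GENCODE M21 (GRCm38), a later release than the authors' Ensembl annotation.

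Genes that reached 0.1 TPM in 8 or more libraries were tested on log2(TPM + 0.5) with limma 3.58.1 (R 4.3.3; intensity trend; two-sided; Benjamini-Hochberg over 25572 genes), which was tested on simulated data. Each comparison used its own groups, the interaction all 36 libraries. This scale understates changes of low genes. Permutation tests, two-sided, used scipy 1.17.1 and numpy 2.4.6. Labels call each sample a separate mouse.

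Named were Slc25a35, members with an unadjusted p under 0.01 anywhere, the 3 smallest p per comparison, the highest and lowest member of each role, the 3 highest members, overlapping genes, the 5 genes most like Slc25a35, and transport genes with an unadjusted p under 0.01. Of the overlapping genes, only some are described. Slc25a5, Slc25a33, Slc25a22, Slc25a12, Slc25a18, Timm22 and Mtch1, where no part of this rule covers them, and all relations between members and marker scores were chosen after values were seen. The members, roles, lists and tests were chosen with earlier results of these data known. Alternatives were pseudocounts of 0.1 and 1, no filter, a filter at a mean of 1 TPM, quantile normalization, median-ratio scaling, array weights, marker covariates, a replicate block, 1 fit of all libraries and leaving out each library.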

Additional observations from a re-analysis of the deposited data

Results flagged for a closer look

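In 79 sets of a named member in 1 group, 10 held a library far from the rest by Dixon's criterion. Its chance rate of about 1 of 20 holds for separate sets with a normal spread. These sets share libraries and some are mostly at 0, so the count cannot be set against that rate. WT vehicle replicate 1 was the highest of its group for Slc25a4 (569.3 TPM, next 478.7), Slc25a13 (2.41 TPM, next 0.571) and Slc25a46 (54.0 TPM, next 45.8). WT IMN replicate 1 was the lowest of its group for Slc25a3 (251 TPM, next 300.2) and Slc25a46 (33.9 TPM, next 44.2). WT IMN replicate 7 was the highest for Slc25a1 (48.4 TPM, next 37.5) and Slc25a48 (0.182 TPM, next 0.0884). WT IMN replicate 10 was the one library of its group with Slc25a32 above 0 (2.75 TPM). Slc25a23 was highest in Brd1+/- IMN replicate 7 (454.7 TPM, next 381.4), and Slc25a53 in WT vehicle replicate 7 (10.0 TPM, next 6.87). None of the sets of Slc25a35 was flagged.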

How the results depend on the processing

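Under no setting did a member reach an adjusted p under 0.05 (limma, 162 fits). The count of members with an unadjusted p under 0.05 in the vehicle comparison, 0 as reported, was 1 with no filter, with a mean of at least 1 TPM, with quantile normalization or with all 36 libraries in one fit, 2 with median-ratio scaling or marker covariates, 5 with array weights, and 0 to 5 when a library was left out. Over all 25572 genes this count was 959 as reported, 1003 with median-ratio scaling, 1024 with quantile normalization and 981 with all 36 libraries in one fit. It rose to 1451 with marker covariates and 1621 with array weights. It was 1171 of 33461 genes with no filter and 582 of 17716 at a mean of at least 1 TPM. For IMN in Brd1+/- mice the count of 2 became 5 with marker covariates and 1 to 3 when a library was left out. Over all 25572 genes it was 1412 as reported and 2053 with marker covariates. Leaving out a library gave 2 to 3 between the genotypes under IMN, 2 to 7 for IMN in WT mice and 2 to 4 for the interaction. Shares over all genes in the fits without a library are not given here. The Slc25a35 difference for IMN in Brd1+/- mice ran from 0.34 to 0.40 over the settings and from 0.33 to 0.41 without a library (limma adjusted p from 0.315 to 0.915), always with an unadjusted p under 0.05. Its interaction ran from 0.27 to 0.33 over the settings, and the limma unadjusted p was above 0.05 in 3 of 9 of them.

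Directions turned only where values were near 0: Slc25a35 in the vehicle comparison (0.0298 with array weights, 0.0373 with marker covariates, -0.0482 to 0.0123 without a library), Slc25a28 (-0.000825 with the replicate block, -0.00245 to 0.0411 without a library) and Slc25a53 (0.00327 with array weights, 0.0194 with marker covariates, -0.0517 to 0.0358 without a library) between the genotypes under IMN, and, without a library, Slc25a53 in the vehicle comparison (-0.00953 to 0.108) and Slc25a28 for IMN in Brd1+/- mice (-0.0504 to 0.016). The causes were not tested. Replicate numbers did not pair the libraries (correlation of deviations over 0.1 in 1 of 34 pairs). With the replicate block the counts were 0, 3, 2, 4 and 2 in the order vehicle, IMN genotypes, IMN in Brd1+/-, IMN in WT and interaction. Over all 25572 genes they were 811, 867, 1313, 1955 and 891 in the same order. No Slc25a43 value exists at a mean of at least 1 TPM.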
